A study of Drosophila melanogaster with 2 samples.

Results

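Divergent promoters, where a gene on the minus strand and a gene on the plus strand start back to back and are read away from each other, carried 487 of the 6776 peaks of CG12605-eGFP, or 7.19%. A peak was counted here when its summit, the position that the authors' caller gave as its highest point, lay within 500 bp of start sites of protein-coding genes on both strands, with the minus-strand start site at the lower coordinate. The choice used position only and no measured strength. These 487 peaks sat at 457 gene pairs, of which 427 had 1 such peak and 30 had 2, and 947 genes had a start site within 500 bp of one of them. They made up 18.0% of the 2704 peaks near any protein-coding start site by the same distance. The peaks they are set against are 2203 unidirectional promoter peaks, near start sites on 1 strand only, and 4072 distal peaks, farther than 500 bp from any start site.

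The peaks come from chromatin immunoprecipitation with sequencing (ChIP-seq) of whole Drosophila melanogaster pupae aged 1 day. The strain, CG12605-GFP, carries an insertion from which CG12605 is made as a fusion with enhanced green fluorescent protein (eGFP), and chromatin sonicated to fragments of 200 to 800 bp was precipitated with an antibody against GFP. There is 1 group with 2 biological replicates, so no condition is compared, and a whole pupa mixes all its tissues, so the cells that gave a peak cannot be told apart. The sources used here do not give the promoter that drives the fusion protein. The conservative list, which keeps peaks whose rank repeats between the replicates, is the main list, and each replicate also has its own thresholded list of 4022 peaks (replicate 1) or 5394 peaks (replicate 2). No read counts were analysed, so the depth of either library is unknown. The signal value of a peak is the authors' own and serves here only for ranking and description. Peaks are ranked inside 1 list, and values of the replicates are set side by side without a correction for depth.

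The product of CG12605 is related to the zinc finger proteins Snail and Scratch, which bind E-boxes, short sequences of the form CANNTG, and are best known as repressors in neural and mesodermal cells. Head-to-head genes with close start sites are common in the compact fly genome. Many encode housekeeping proteins such as those of mitochondria and ribosomes. Their shared upstream sequence often holds the DRE, the site TATCGATA read by the factor Dref, and its inner part CGATA, which is bound by the insulator protein BEAF-32.

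The sequences between the start sites of 5 of the strongest peaks show what the summits stood on. They are given from the minus-strand start site to the plus-strand start site, 5′ to 3′ on the plus strand of the Release 6 assembly from RefSeq, which has dm6 coordinates. Capitals mark the 11 bases centred on the summit, and no annotated exon lies between the start sites. The pairs are Art3/mRpS10 (chr3R:15229408-15229665), Tcs5/CHMP2B (chr3L:5139395-5139619), CG7601/CIA30 (chr3R:29736745-29736965), CG3437/CG3552 (chr3L:9457669-9457912) and CG13390/CG17294 (chr2L:8376797-8377035).
Art3/mRpS10: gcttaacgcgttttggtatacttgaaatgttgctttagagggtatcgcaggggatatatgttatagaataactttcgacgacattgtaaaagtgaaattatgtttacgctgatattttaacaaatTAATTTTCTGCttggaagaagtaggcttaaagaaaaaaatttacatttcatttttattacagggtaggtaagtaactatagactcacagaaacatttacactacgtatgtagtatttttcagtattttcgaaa
Tcs5/CHMP2B: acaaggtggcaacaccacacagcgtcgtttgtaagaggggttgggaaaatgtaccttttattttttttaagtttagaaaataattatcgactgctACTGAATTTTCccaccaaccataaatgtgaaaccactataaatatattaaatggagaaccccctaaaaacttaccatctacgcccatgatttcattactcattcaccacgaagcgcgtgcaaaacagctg
CG7601/CIA30: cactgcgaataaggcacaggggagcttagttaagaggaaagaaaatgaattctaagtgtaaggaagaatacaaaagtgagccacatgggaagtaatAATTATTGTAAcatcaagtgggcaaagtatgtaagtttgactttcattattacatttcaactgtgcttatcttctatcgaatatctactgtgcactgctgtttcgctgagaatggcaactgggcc
CG3437/CG3552: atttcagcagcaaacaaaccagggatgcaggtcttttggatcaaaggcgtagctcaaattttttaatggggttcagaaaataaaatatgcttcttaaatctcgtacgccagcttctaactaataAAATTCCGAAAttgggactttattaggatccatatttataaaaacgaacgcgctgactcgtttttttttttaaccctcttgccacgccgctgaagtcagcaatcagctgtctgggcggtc
CG13390/CG17294: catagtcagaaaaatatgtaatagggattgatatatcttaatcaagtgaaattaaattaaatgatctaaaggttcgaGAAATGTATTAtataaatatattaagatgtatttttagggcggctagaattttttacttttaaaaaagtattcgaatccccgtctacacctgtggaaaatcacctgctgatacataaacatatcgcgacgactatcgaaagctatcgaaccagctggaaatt

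All 5 summits lay in the stretch between the start sites, 82 to 156 bp from either one. The CG3552 gene also has a start site beyond CG3437, so the summit at that pair lies within the span of CG3552. The longest unbroken run of A and T bases was 19 bp between CG13390 and CG17294, 16 bp between Tcs5 and CHMP2B, 13 bp between CG3437 and CG3552 and 11 bp in each of the other two. None of the 5 summit windows, 50 bp on either side of the summit, held the DRE. In the next pairs the start sites almost touched, and the peak was wider than the sequence between them. In Fbw5/CG9147 (chr2L:6065953-6065997) it holds a whole DRE, in capitals below, and in CG11309/CG7632 (chr3L:21304658-21304697) and CG1275/Elp5 (chr3L:2257423-2257456) it holds no CGATA on either strand.
Fbw5/CG9147: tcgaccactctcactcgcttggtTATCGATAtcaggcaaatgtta
CG11309/CG7632: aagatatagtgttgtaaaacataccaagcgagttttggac
CG1275/Elp5: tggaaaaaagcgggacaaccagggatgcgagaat

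At these 3 pairs the summits stood outside the printed stretch, 99 bp inside CG9147, 104 bp inside CG11309 and 67 bp inside Elp5. Each of them was at the same time 100 to 143 bp upstream of the partner gene's start site.

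The strongest divergent peak lay between mRpS23, which encodes a protein of the small mitochondrial ribosomal subunit, and CenG1A, a GTPase-activating protein for Arf GTPases. Its signal was 1053, with 523 in replicate 1 and 517 in replicate 2, and its summit on 2L at 13835460 was 104 bp upstream of CenG1A and 388 bp upstream of mRpS23. The peak shared by Art3, an arginine methyltransferase gene, and mRpS10, another gene of the small mitochondrial subunit, had a signal of 976, with 500.4 in replicate 1 and 478 in replicate 2. Its summit was nearly central, 130 bp from Art3 and 127 bp from mRpS10.

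Tcs5, a kinase gene of tRNA modification, shared with CHMP2B, an ESCRT-III gene, a peak of 953, for which replicate 1 gave 408 and replicate 2 gave 547. CG7601/CIA30 followed at 912, with 454 in replicate 1 and 463 in replicate 2, CIA30 being an assembly factor of respiratory complex I. CG3437/CG3552 had 855, with 407 in replicate 1 and 427 in replicate 2. Replicate 2 gave the higher value at 3 of these 5 pairs and replicate 1 at the other two, and every one of the 5 ranked above 99% of all conservative peaks.

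Among the 25 strongest divergent peaks, ranging down to a signal of 419, all 25 were also matched in each replicate's own list. Genes of organelles, signalling and protein turnover were among them. Fbw5, an F-box protein gene, and CG9147 had 810.3, and CG1275 and Elp5, an Elongator subunit gene, had 772. fws, a Golgi tethering subunit gene, and Lamtor3, a Ragulator subunit gene, had 661, Pex11ab, a peroxisomal gene, and CG8320 had 657, and alc, the gene of the AMP-activated kinase beta subunit, and CG8788 had 664.

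Chromatin and transcription genes belonged to the 25 as well. Chro, the gene of the chromodomain protein Chromator, and Ssl1, a TFIIH subunit gene, shared a peak of 622, with 276 in replicate 1 and 352 in replicate 2. brm, the ATPase gene of the SWI/SNF remodelling complex, and Arl1, a Golgi GTPase gene, shared one of 493, with 239.9 in replicate 1 and 249 in replicate 2. Its summit window had a GC content of 14.9%, the lowest of the 25 together with that of Wdr37/koko, which had the same value.

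Other pairs of the 25 included CG11309/CG7632 at 782, tank/CG12194 at 703, CG13390/CG17294 at 675, Mnat9/CG1792 at 577, mRpL23/CG9004 at 571, CG8372/CG8360 at 499 and CG1227/Dtwd2 at 468. Mkk4, a kinase gene of the JNK cascade, and SLIRP2 had 466, Wdr37/koko had 434, CG7183/CG7988 had 434, Stt3A, an oligosaccharyltransferase gene, and bves had 428, and CG5757/CG5098 had 419. For 14 of the 25 the summit fell between the start sites. At 22 of the 25 it lay 75 to 200 bp upstream of at least 1 of the start sites, and at 10 of them upstream of both by that distance. Over all 487 divergent peaks these counts were 269 and 91.

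The distance between the start sites of the 487 peaks ran from 6 to 960 bp, with a median of 263 bp. Over all 2592 head-to-head pairs of the genome with start sites at most 1000 bp apart the median was 297 bp. Room for a summit within 500 bp of both start sites shrinks with their distance, so the lower median of members is partly built in. The summit fell between the start sites for 286 peaks, or 58.7% (95% exact binomial interval 54.2 to 63.1). The others were inside a gene, 100 of them in the minus-strand gene and nearly the same number in the plus-strand gene, at a median of 92 bp past its start site. The share between the start sites was 15.3% (15 of 98) for start sites up to 100 bp apart, 36.4% at 100 to 200 bp, 66.7% (96 of 144) at 200 to 300 bp and 93.1% (67 of 72) at 400 to 600 bp. Part of this follows from the choice of members, because the room between the start sites grows with their distance while the room outside them within 500 bp of both shrinks.

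**Figure D1:**
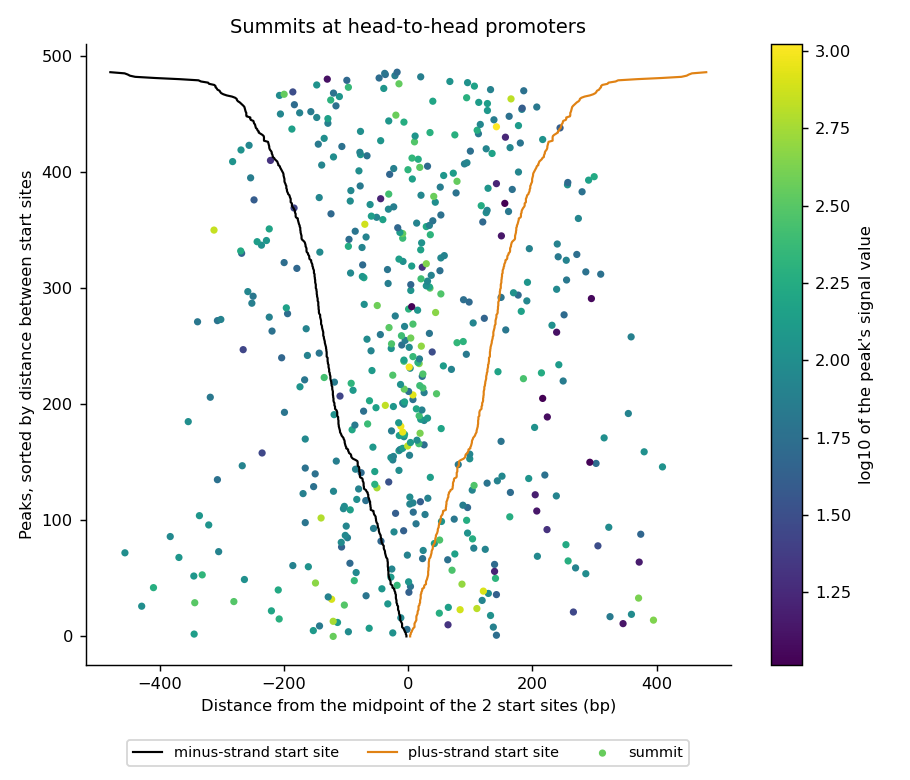
Position of the summit of each of the 487 divergent promoter peaks (points, coloured by the log10 of the signal value), in bp from the midpoint of the start sites, with peaks sorted upward by the distance between the start sites (lines: the minus-strand and the plus-strand start site). Summits gather near the midpoint where the lines are 200 to 300 bp apart, where 49.3% lay within 50 bp of it, and stand outside the lines where the start sites nearly touch.

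At the closest pairs the summit did not sit midway. With start sites up to 100 bp apart, the median upstream distance was -103.5 bp from the nearer start site, that is inside that gene, and 146.5 bp from the other. At 200 to 300 bp the summit sat within 50 bp of the midpoint for 71 of 144 peaks, or 49.3%, against 32.9% over all 487. The midpoint of such start sites is by construction 100 to 150 bp upstream of each of them, and 72 of these 144 summits were 75 to 200 bp upstream of both.

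Over all distances, 269 of the 487 summits, or 55.2% (50.7 to 59.7), lay 75 to 200 bp upstream of at least 1 start site. A divergent summit can meet this range from the start site of either strand. The same share was not computed for unidirectional peaks. Measured from the nearer start site, the bin of 100 to 150 bp upstream was the fullest and held 21.4% of the divergent peaks, against 11.9% of the unidirectional ones. The median was 42 bp upstream for divergent peaks and 70 bp upstream for unidirectional peaks. A summit between facing start sites is never farther from the nearer one than their midpoint is. Unidirectional peaks have no such cap, so the distances of these kinds of peak are not measured alike. For 370 of the 487 peaks the deposited interval was 360 bp wide with the summit at its exact centre.

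Members at the edge of the 500 bp limit did not stand apart. The 13 peaks whose farther start site lay 490 to 500 bp from the summit had a median signal of 95.2, from 12.7 at RpS5a/Chchd2 to 352 at CG14968/ZnT63C. The 3 peaks just outside, at 502 to 510 bp, had signals of 76.4 at CG4294/RpS16, 76.7 at Mis12/CG9953 and 116 at CG12929/RpL31.

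A head-to-head pair was counted as bound if both of its start sites had the same summit within 500 bp. Of the 2592 pairs 480 were bound, or 18.5% (17.0 to 20.1), which is more than the 457 pairs above because a peak near more than 2 genes can count for several pairs. There were 3 genes within 500 bp of 18 divergent summits and 4 or more within 500 bp of 5. Over all 13945 protein-coding genes, 19.3% had a summit within 500 bp of a start site. Taken gene by gene, 26.3% (25.1 to 27.5) of the 4993 genes in a head-to-head pair were bound, against 15.4% (14.7 to 16.2) of the 8952 genes in none. Genes in a pair had several annotated start sites more often, at 31.6% against 23.7%, and share peaks with their partner, so both shares were also put on a scale of sequence length. Windows of 500 bp around start sites held 0.232 summits per kb for genes in a pair and 0.154 summits per kb for genes in none, against 0.0506 per kb over the assembled arms.

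The share of pairs bound was highest, 26.9% (23.2 to 30.8), for start sites 200 to 300 bp apart. It was 21.7% (17.9 to 25.9) up to 100 bp, 20.1% (16.0 to 24.6) at 100 to 200 bp, 21.9% (17.9 to 26.4) at 300 to 400 bp, 15.2% (12.1 to 18.8) at 400 to 600 bp and 3.81% (2.19 to 6.11) at 600 to 1000 bp. The window within 500 bp of both start sites narrows as they move apart, so the fall at the long end is partly built in. Per kb of that window the pairs at 200 to 300 bp still had the most summits, 0.377, with 0.36 at 300 to 400 bp, 0.302 at 400 to 600 bp, 0.254 at 100 to 200 bp, 0.252 up to 100 bp and 0.177 beyond 600 bp. The narrowing takes away the outer parts of the window, so these densities do not cover like stretches around the start sites.

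In each replicate's own list the pairs 200 to 300 bp apart were again the most often bound, with those up to 100 bp apart next. In replicate 1's own list 19.3% (104 of 540) of the pairs at 200 to 300 bp were bound, 14.95% up to 100 bp and 7.91% at 100 to 200 bp. In replicate 2's own list the shares were 22.8% (123 of 540), 19.4% and 14.7%. In both lists the pairs 100 to 200 bp apart were below the pairs on either side of them. The intervals of the classes up to 300 bp overlapped in replicate 2 except between 100 to 200 and 200 to 300 bp, where they ran from 11.2 to 18.8 and from 19.3 to 26.6.

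**Figure D2:**
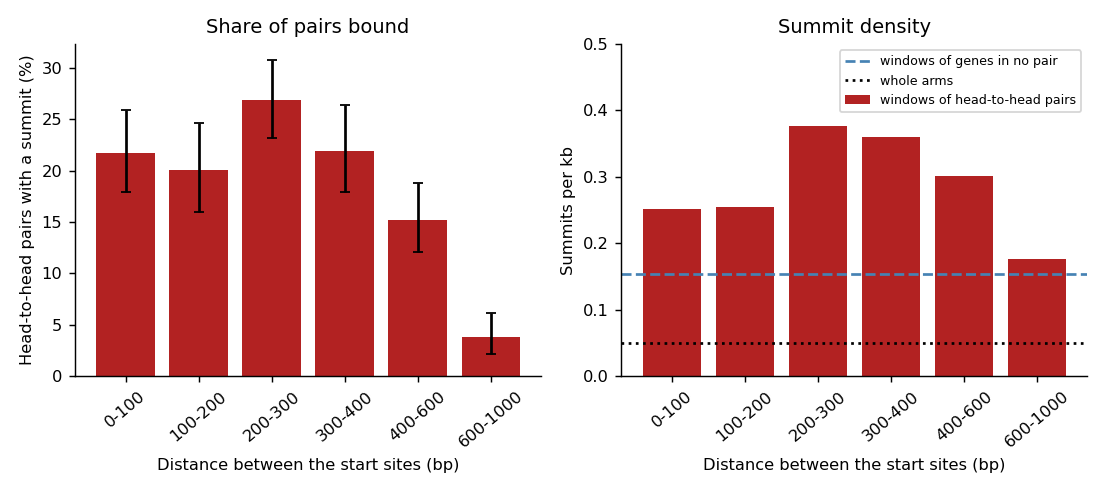
Left, the share of head-to-head gene pairs with a conservative summit within 500 bp of both start sites, by the distance between the start sites (bars: percent of pairs; error bars: 95% exact binomial intervals). Right, summits per kb of the window within 500 bp of both start sites, with the density in windows of genes in no pair (dashed, 0.154) and over the whole arms (dotted, 0.0506); pairs 200 to 300 bp apart were highest in both panels, at 26.9% and 0.377. The dashed line comes from windows of 500 bp on either side of each start site, which are unlike those of the bars.

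By chromosome arm the share of pairs bound was 21.8% (18.3 to 25.6) on 3L, 19.4% on 3R, 18.8% on 2R, 18.0% on 2L and 13.6% (10.4 to 17.4) on X. On X the share of single genes bound, 19.4%, was close to that on 3R (18.6%) and 2L (18.3%). None of the 11 pairs on chromosome 4 was bound, with an interval that reaches 28.5%, and only 2 of its 80 protein-coding genes were bound.

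Divergent peaks had slightly higher signal values than other peaks. The median was 91.0 for divergent peaks, 85.7 for unidirectional peaks and 84.7 for distal peaks, against 85.6 for all. The direction depended on the distance limit, since with 1000 bp in place of 500 bp the ratio of the divergent to the unidirectional median was 0.966. In replicate 1's own list the medians were 57.1 for 300 divergent peaks and 52.3 for 1394 unidirectional peaks, and in replicate 2's own list 59.8 for 395 divergent peaks and 54.8 for 1748 unidirectional peaks. The middle ranges overlapped almost fully, with quartiles of 64.9 and 143 for divergent peaks and of 63.6 and 132 for unidirectional peaks. The upper end differed more: the 90th percentile of divergent peaks was 287, against 234 for unidirectional and 199 for distal peaks. Among the strongest 10% of all peaks 10.3% (8.15 to 12.9) were divergent, against 7.19% in the list as a whole.

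Peaks with the summit between the start sites were stronger than those inside a gene, with medians of 96.1 and 86.5. Of the 70 divergent peaks in the strongest 10% of the list, 49 had the summit between the start sites. Signal did not follow the distance between the start sites (Spearman rho across 487 peaks -0.05, a description only, since the peaks share libraries).

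**Figure D3:**
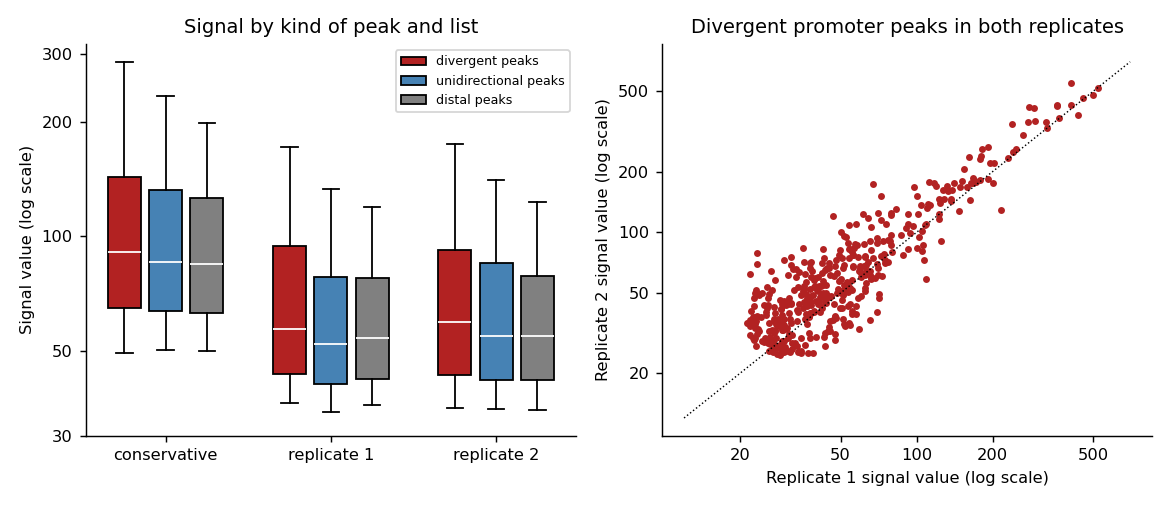
Left, signal values on a log scale of divergent, unidirectional and distal peaks in the conservative list and in the thresholded lists of replicate 1 and replicate 2 (boxes: quartiles with the median as a white line; whiskers: the 10th and 90th percentiles). Right, the replicates' signal values for the 432 divergent peaks with a ranked summit of each replicate within 100 bp, with the line of equal values dotted; the divergent median was above the unidirectional one in each list (91.0 and 85.7, 57.1 and 52.3, 59.8 and 54.8).

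Of the 487 divergent peaks, 249 were matched by peaks in each replicate's own thresholded list, or 51.1% (46.6 to 55.7), where the share over all conservative peaks was 48.3% and over unidirectional peaks 50.02%. A further 98 overlapped replicate 2's list only, 33 replicate 1's list only and 107 neither. The interval of the divergent share includes the shares of all and of unidirectional peaks. In the full ranked lists 432 of the 487 had a summit of each replicate within 100 bp, at a median distance between the replicates' summits of 18 bp, against 24 bp for unidirectional peaks. Over these 432 peaks the replicates' signal values had a Spearman rho of 0.80, against 0.74 over 1928 unidirectional peaks, and replicate 2 was 1.18 times replicate 1 at the median, a ratio that all peaks shared (1.19).

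A few members were weak neighbours of stronger peaks, about as often as other peaks were. Of the 487, 26 had a signal under 30, or 5.34%, against 4.27% of unidirectional and 4.72% of all peaks. A stronger conservative summit lay within 500 bp of 25 of the 26, and of 89 of the 94 unidirectional ones. The 30 pairs with 2 divergent peaks hold 20 of them, with the paired summits a median of 208 bp apart and never closer than 199 bp. At Irbp18/APP-BP1, for example, the peaks had signals of 129 and 12.1 at summits 204 bp apart. Exceptions with a strong second peak were CG1275/Elp5, with 772 and 100.5 at 513 bp, and Acbp1/Piezo, with 230 and 149 at 203 bp. These examples were chosen after their values were seen.

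The sequence under divergent summits was poor in G and C. In these summit windows the median GC content was 32.7% for divergent peaks, 43.6% for unidirectional peaks and 33.7% for distal peaks. Between the start sites it was 28.7%, and inside a gene 39.6%, while unidirectional peaks upstream of their gene stood at 41.6%. The stronger divergent peaks were poorer still, with a median of 25.7% among those in the strongest 10% of the list, against 31.7% for all peaks of that class. Across the 487 peaks GC content and signal had a Spearman rho of -0.35. In the lists of single replicates the divergent and unidirectional medians were 30.2% and 41.6% for replicate 1, and 33.7% and 43.6% for replicate 2.

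This base composition was shared by head-to-head pairs without a peak. At the midpoint of start sites 200 to 300 bp apart the median GC content of the window was 25.7% both for the 145 bound pairs and for the 395 unbound ones. At 300 to 400 bp it was 25.7% for bound and 27.7% for unbound pairs, and up to 100 bp 46.5% for bound and 43.6% for unbound pairs. The quartiles at 200 to 300 bp were 21.8% and 30.7% for bound pairs and 21.8% and 32.7% for unbound pairs.

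**Figure D4:**
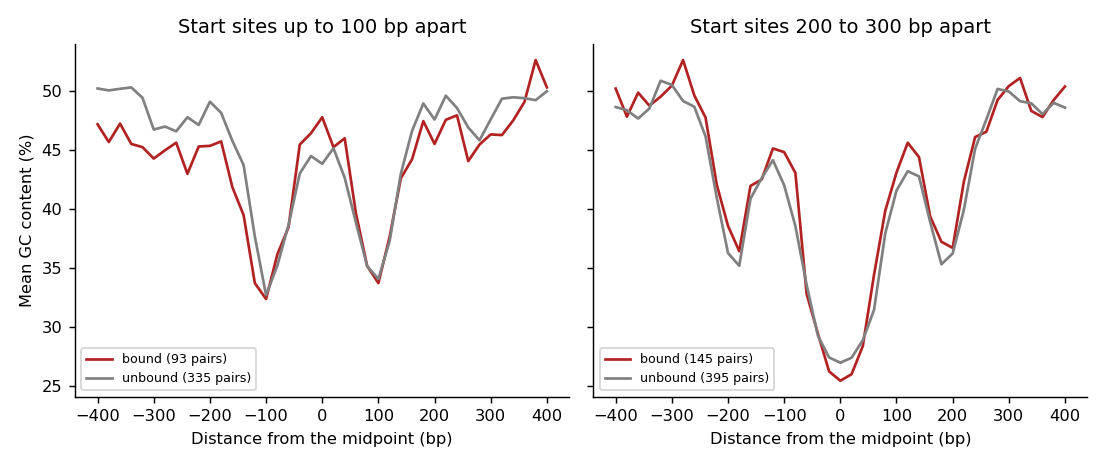
Mean GC content in steps of 20 bp around the midpoint of the start sites of head-to-head pairs, bound (red) and unbound (grey), for start sites up to 100 bp apart (left; 93 bound and 335 unbound pairs) and 200 to 300 bp apart (right; 145 bound and 395 unbound). Bound and unbound pairs run nearly together: the wide pairs dip at the midpoint, and the close pairs on either side of it near 100 bp.

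Short motifs were searched in the summit windows on both strands. CGATA occurred in 17.9% (14.6 to 21.6) of divergent windows, 12.5% of unidirectional, 8.69% of distal and 10.6% of all windows. TATAAA, the core of the TATA box, occurred in 23.2% (19.5 to 27.2) of divergent windows, against 12.1% of unidirectional and 16.8% of all windows. GAGAG, the core of the site of GAGA factor, was found in 9.86% (7.36 to 12.9) of divergent windows, against 26.3% of unidirectional and 19.6% of all windows. For TATAAA and GAGAG, head-to-head pairs without a peak had similar shares around their midpoint. TATAAA was in 22.3% of bound and 23.2% of unbound pairs, and GAGAG in 8.13% of bound and 7.58% of unbound pairs. CGATA was less frequent around the midpoint of bound pairs, at 18.96% (15.5 to 22.8), than of unbound pairs, at 24.95% (23.1 to 26.9). The divergent and unidirectional windows differed in GC content, as given above, and its part in the motif differences between them was not tested.

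The directions were the same in each replicate's own list, and the gap was smallest for CGATA there. GAGAG stood in 8.0% of divergent and 26.4% of unidirectional windows in replicate 1, and in 9.11% of divergent and 26.9% of unidirectional windows in replicate 2. TATAAA stood in 27.0% of divergent and 14.4% of unidirectional windows in replicate 1, and in 23.0% of divergent and 12.5% of unidirectional windows in replicate 2. CGATA stood in 15.0% (11.2 to 19.6) of divergent and 11.8% of unidirectional windows in replicate 1, and in 15.2% (11.8 to 19.1) of divergent and 12.1% of unidirectional windows in replicate 2, and both intervals include the unidirectional share. TCAGT, the core of the initiator, was in 15.4% of divergent and 20.2% of unidirectional windows of the conservative list. The place of TCAGT and TATAAA relative to a start site was not checked.

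**Figure D5:**
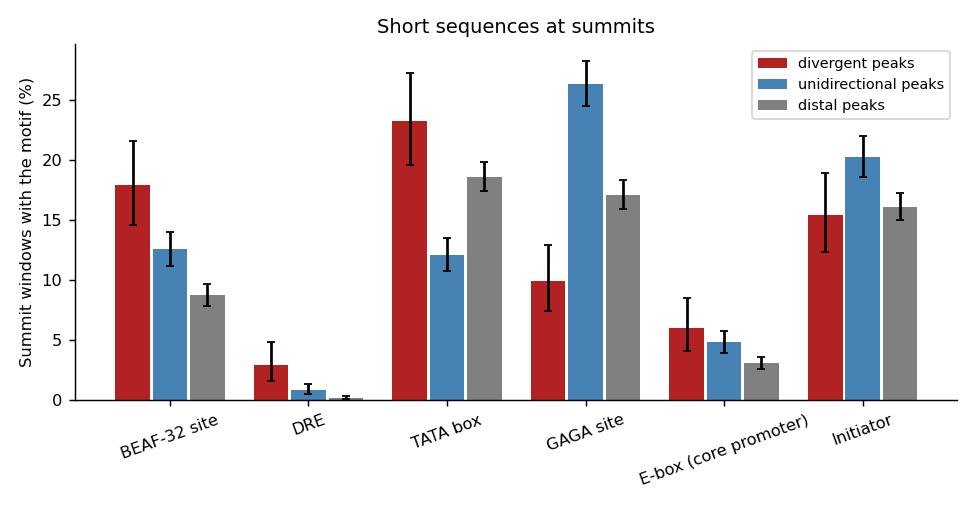
Share of summit windows (50 bp on either side of the summit, conservative list) that hold each motif on either strand, for divergent, unidirectional and distal peaks (bars: percent; error bars: 95% exact binomial intervals). Divergent windows stand above unidirectional ones for CGATA, labelled BEAF-32 site (17.9% and 12.5%), and TATAAA, labelled TATA box (23.2% and 12.1%). They stand below them for GAGAG, labelled GAGA site (9.86% and 26.3%). The labels stand for the short sequences searched, at any place in the window.

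The whole DRE, TATCGATA, which contains CGATA, was rare under the summits. It stood in 14 of 487 divergent windows, or 2.87% (1.58 to 4.78), against 0.817% of unidirectional and 0.546% of all windows. In the replicates' own lists the direction turned in replicate 1 and held, with a smaller gap, in replicate 2. Divergent windows had it in 0.667% of cases against 0.861% of unidirectional ones in replicate 1, and in 1.27% (0.412 to 2.93) against 0.801% in replicate 2, where the interval includes the unidirectional share. The 14 peaks were of low to middle strength, from 10.6 at Vps52/Elp4 to 144 at CG5885/CG4598. Pairs with cytoplasmic ribosomal protein genes were among them, such as RpL34a/Trmt61 (109), RpL41/NaCP60E (108), RpL28/eIF1 (87.3), Dhdds/RpS14a (57.1) and RpS5a/Chchd2 (12.7), a grouping chosen after the values were seen. GGTCACACT, an element of ribosomal protein and other housekeeping promoters, stood in 4 divergent windows, or 0.821%, and in 0.953% of unidirectional windows.

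The sequence between the start sites held these elements more often, in bound and unbound pairs alike. Of the bound pairs 14.4% (11.4 to 17.8) had TATCGATA between the start sites, against 18.3% (16.65 to 19.99) of the unbound pairs, and 53.8% had CGATA, against 65.1%. Pairs with CGATA were bound in 15.8% (14.1 to 17.7) of cases and pairs without it in 23.1% (20.5 to 26.0), but those with it had start sites farther apart, at a median of 345 bp against 236 bp. Among pairs up to 100 bp apart, where that distance was alike (56.5 and 57 bp), 9 of 86 with TATCGATA within 50 bp of the midpoint were bound, or 10.5% (4.90 to 18.9), and 84 of 342 without it, or 24.6% (20.1 to 29.5). The E-box CAGCTG stood the other way, with 24.7% (20.8 to 28.9) of the 462 pairs that hold it bound and 17.2% (15.6 to 18.9) of those without it, at similar median distances of 311.5 and 290 bp. Among pairs up to 100 bp apart the intervals overlapped, with 27.7% (18.9 to 37.8) of the 94 pairs with CAGCTG within 50 bp of the midpoint bound and 20.1% (15.9 to 24.8) of those without it. For the E-box CACCTG the direction was the opposite, with 12.8% (8.97 to 17.5) of the 258 pairs that hold it bound and 19.2% (17.6 to 20.8) of those without it, at median distances of 486 and 283 bp. Under the summits themselves CAGCTG stood in 5.95% (4.02 to 8.44) of divergent windows, an interval that includes the 4.77% of unidirectional windows.

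CAACAGGTG, the longer E-box read by Snail and Scratch proteins, was rare at these promoters. It contains CACCTG on its other strand. The summit windows of 5 divergent peaks held it, or 1.03% (0.334 to 2.38), which is near the 1.09% of unidirectional and the 0.871% of all windows, and CACCTG alone was in 3.70% of divergent and 3.95% of unidirectional windows. The 5 peaks were at Oseg6/Rep, with a signal of 167 (57.6 in replicate 1 and 110 in replicate 2), GABA-B-R2/CG6800 with 163 (53.9 and 109), CG15877/Svil with 114 (49.1 and 76.8), CG10194/CG18094 with 97.4 (48.6 and 49.8) and CG13218/CG13228 with 65.2 (27.7 and 35.1). Replicate 2 was higher at all 5, and over all peaks it was 1.19 times replicate 1 at the median. GABA-B-R2 encodes a subunit of the metabotropic GABA receptor and Rep the Rab escort protein.

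Few head-to-head pairs in the genome held CAACAGGTG between their start sites at all. Of these 14 pairs 6 were bound, or 42.9% (17.7 to 71.1), against 18.4% of the 2578 others, and the interval is wide and reaches down to the share of the others. The pairs with it had start sites farther apart, at a median of 623 bp against 296 bp. At 100 to 200 bp 1 bound pair and 0 unbound pairs held it, and at 200 to 300 bp 2 and 0. At 300 to 400 bp the counts were 1 and 0, and at 400 to 600 bp 0 and 2. Over all distances they were 6 and 8. The rest, with most of the unbound pairs, had start sites more than 600 bp apart.

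The windows of 2 of these peaks and of 1 with the DRE are given on the plus strand of Release 6, 50 bp on either side of the summit and free of annotated exons, with the motif in capitals. They are GABA-B-R2/CG6800 (chr3R:21775973-21776073), CG10194/CG18094 (chr2L:19490118-19490218), where the motif reads on the other strand, and CG12321/MED17 (chr3R:18188965-18189065).
GABA-B-R2/CG6800: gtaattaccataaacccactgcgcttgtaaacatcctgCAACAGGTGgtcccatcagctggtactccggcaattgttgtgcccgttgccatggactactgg
CG10194/CG18094: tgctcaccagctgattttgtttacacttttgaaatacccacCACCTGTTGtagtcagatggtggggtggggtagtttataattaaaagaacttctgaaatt
CG12321/MED17: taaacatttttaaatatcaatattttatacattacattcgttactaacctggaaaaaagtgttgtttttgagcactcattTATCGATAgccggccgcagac

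In GABA-B-R2/CG6800 the E-box lay near the window's centre, and in CG12321/MED17, whose signal was 98.8, the DRE lay near its edge, away from the summit. MED17 encodes a subunit of the Mediator complex.

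Genes of protein synthesis differed in how often and how strongly their divergent promoters were bound. Of all 4993 genes in a head-to-head pair, 942 had a divergent peak within 500 bp, or 18.9%. Of the 55 cytoplasmic ribosomal protein genes in a pair 24 did, or 43.6% (30.3 to 57.7). Binding was frequent in this family at other promoters too: 52 of all 92 genes, or 56.5%, had a summit near a start site, against 19.3% of all protein-coding genes, and only 24 of the 52 were at a divergent peak. The same count, over the nearest pair of each peak, was 14 of 55 in replicate 1's own list, against 11.7% of all genes in pairs, and 22 of 55 in replicate 2's list, against 14.9%. Their peaks were of middling height. RpL34b/CG8132 had 201.4 (96.3 in replicate 1 and 107 in replicate 2), RpS27/Nup37 had 194 (46.8 and 121), Ripalpha/RpL7 had 186 (75.8 and 110) and CG6693/RpL3 had 150.1 (74.3 and 78.0).

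Near-identical ribosomal protein copies were not set apart here. One of the 24 pairs, chosen after its values were seen, joins RpL13 with Dref, the gene of the DRE-binding factor, at a signal of 131 with the summit on the RpL13 start site.

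The mitochondrial ribosomal protein genes are far more often head to head, with 58 of 73 in a pair, and 13 of the 58 had a divergent peak, or 22.4% (12.5 to 35.3), close to the share of all genes in pairs. Yet they gave the highest values of any list, with mRpS23 at 1053, mRpS10 at 976, mRpL23 at 571 (264 in replicate 1 and 305 in replicate 2) and mRpL24 at 412 (196 and 221). The lowest of the 13 was mRpL18, at 68.6. At mRpL23 the summit was inside the gene and 133 bp upstream of its partner CG9004, and at mRpL24 it was between the start sites, 90 bp upstream of its partner betaggt-I. Each replicate's own list held 12 of the 58.

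Of the 45 oxidative phosphorylation genes in a pair, 8 had a divergent peak, or 17.8%. ND-ASHI, a complex I subunit gene paired with the fumarase gene Fum1, had 365 (171 in replicate 1 and 178 in replicate 2), ND-MWFE had 161, ND-24 had 98.1 and ND-51 had 80.0. Aminoacyl-tRNA synthetase genes had one in 5 of 22 cases, among them IleRS at 189.7, ThrRS at 115, SerRS at 106 and GlnRS at 85.6. The list took symbols that name 1 amino acid, so it leaves out GluProRS, the synthetase gene for glutamate and proline, whose peak shared with AP-1sigma was higher than these, at 286 (137 in replicate 1 and 143 in replicate 2). Translation factor genes had one in 4 of 30, with eIF3h at 120.4, eIF1 at 87.3, eEF1alpha1 at 57.3 and eRF3 at 52.4. The intervals of all 3 shares included the 18.9% of all genes in pairs.

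Genes of transcription and RNA processing were near that share too. RNA polymerase subunit genes had a divergent peak in 4 of 19 cases, with Polr3E highest at 115. Mediator genes had one in 4 of 20, with MED17 highest at 98.8. Splicing genes had one in 4 of 30, with U2af50, the large subunit gene of the splice site factor U2AF, highest at 183, and nuclear pore genes in 3 of 19, with Nup37, the partner of RpS27, at 194. Vesicle transport genes had one in 11 of 57, with alphaCOP, a coatomer gene, at 289 (127 in replicate 1 and 162 in replicate 2), Vps33B at 219, Vps50 at 165 and Sec6 at 127.

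The other lists held few. Proteasome genes had a divergent peak in 3 of 26 cases, with Rpn3 highest at 102, mitochondrial import genes in 2 of 7, with Tom7 at 141, and the DNA replication genes on the list in 1 of 14, Psf3 at 65.6. The lists were made by symbol and are not complete. PolD2, a subunit gene of DNA polymerase delta that lies outside the list, shared with CG13933 a peak of 181 (79.2 in replicate 1 and 97.4 in replicate 2). It and GluProRS were named after their values were seen. Of the 37 chemosensory and odorant binding genes in a pair 1 did, Ir75c, which shares a peak of 117 with Grd, and of the 11 cuticle protein genes in a pair none did, with an interval that reaches 28.5%. These families are rarely head to head at all, with 16.1% and 9.32% of their genes in a pair, against 35.8% of all protein-coding genes. None of the 6 Snail and Scratch family genes, CG12605 included, is in such a pair.

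Genes at divergent peaks had a median length of 2376 bp, near the 2302 bp of all genes in a head-to-head pair and the 2166 bp of all protein-coding genes. The 1743 other bound genes were longer, with a median of 7320 bp. Genes known only by a CG number made up 30.5% of them, 28.6% of the other bound genes and 43.7% of all. A noncoding start site near the summit was rare, with an annotated ncRNA start within 500 bp of 1.03% of divergent peaks, against 4.40% of unidirectional peaks. For tRNA starts the shares were 0.205% and 0.499%, and for snoRNA starts, the other way, 0.616% and 0.363%.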

How the data were processed

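ChIP-seq peak lists of 2 biological replicates of 1 group were used. Per the labels, chromatin of CG12605-GFP pupae aged 1 day was sonicated and precipitated with an anti-GFP antibody. The authors' lists are on dm6 and were thresholded by the irreproducible discovery rate, per the deposited text. The sources used here name neither the aligner nor the peak caller. The signal value of each peak was deposited by the authors, and its scaling is not stated. The control alignment was not analysed here, and the depth of both libraries is unknown, so intervals cover counting error only.

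Summits were placed on start sites of the Ensembl 115 annotation (protein-coding genes on X, 2L, 2R, 3L, 3R and 4). A peak took the closest head-to-head pair of start sites within 500 bp, and all pairs of the genome were taken where these were at most 1000 bp apart with no other protein-coding start site between. Sequence came from RefSeq Release 6, in windows of 50 bp on either side of the summit. Overlap with a replicate's list meant at least 1 bp. With 1 group no comparison between conditions was possible, and since neighbouring peaks and genes are not replicates, shares are given with 95% exact binomial (Clopper-Pearson) intervals and no p-values. The 16 gene lists were made by symbol. The genes named are those of the 25 strongest divergent peaks, up to 4 per list by signal, the peaks with CAACAGGTG and those within 10 bp of the distance limit, apart from some not reported here. The members, lists and motifs were chosen with earlier results of these data known. Python 3.11.15, numpy 2.4.6, scipy 1.17.1 and matplotlib 3.10.9 were used, and the code was tested on simulated data.

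The alternatives were another peak list, the list of a single replicate, other distance limits, 1 start site per gene (the 5′ end of the gene), peaks at or above the median signal, another window and another overlap. Leaving out peaks with a signal under 30 was added after seeing the data.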

Additional observations from a re-analysis of the deposited data

How the results depend on the processing

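With a distance limit of 250 bp there were 273 divergent peaks, 11.0% of pairs were bound, 68.9% of summits lay between the start sites, the ratio of divergent to unidirectional median signal was 1.19, 56.0% of divergent peaks were in both replicates' lists, and the median GC content was 29.7%. With 1000 bp the values were 840 peaks, 28.4%, 45.0%, a ratio of 0.966, so below that of unidirectional peaks, and a GC content of 38.6%. In the stronger part of the list, at or above the median signal, they were 270 peaks, 10.9% of pairs bound, a ratio of 1.02, 81.1% in both lists and 30.2% GC. From the lists of single replicates, used alone, the count was 300 to 395 peaks, the pairs bound 11.5% to 15.01%, the ratio 1.09 in either, GC 30.2% to 33.7%, and the share with TATCGATA 0.667% to 1.27%. The ratio, 1.06 in the main list, was 1.06 with 1 start site per gene, 1.04 in the series-level thresholded list and 1.08 without peaks of a signal under 30. In windows of 100 bp on either side, GC was 36.3%, TATCGATA stood in 7.60% and GGTCACACT in 2.46%. In the sequence between the start sites the values were 35.9%, 14.99% and 4.93%. Fewer peaks in a list and longer windows change counts and motif shares by construction, and the cause of the other shifts was not tested. Of 68 recomputed values of 8 results, the other 35 stayed within the spread or interval of the main value. Library depth is unknown, so how far it limits the number of divergent peaks in either replicate cannot be given. No paired analysis was possible because there is 1 group.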

Other observations

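Many head-to-head pairs without a conservative summit still had ranked peaks of both replicates within 500 bp of both start sites. There were 516 of them among the 2112 unbound pairs, or 24.4%. Their share was 37.0% (124 of 335) for start sites up to 100 bp apart, 27.6% (78 of 283) at 100 to 200 bp, 34.2% (135 of 395) at 200 to 300 bp, 34.1% (102 of 299) at 300 to 400 bp, 18.2% (72 of 396) at 400 to 600 bp and 1.24% (5 of 404) beyond. The share at other promoters was not computed. The ranked lists hold 41052 peaks in replicate 1 and 46227 in replicate 2 and include peaks that did not pass the authors' threshold.

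Start sites on both strands in an arrangement other than head to head were rare. Only 14 conservative peaks lay within 500 bp of start sites on both strands without a head-to-head pair among them. Their median signal was 83.1, and 7 of the 14 overlapped both replicates' lists.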
